A study of Mus musculus with 21 samples.

Results

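The scavenger receptors and related clearance genes of the liver sinusoidal endothelium were followed as a group of 10 genes: Stab1, Stab2, Mrc1, Lyve1, Fcgr2b, Dnase1l3, Gpr182, Oit3, Ehd3 and Kit. They were taken by symbol from the platform annotation, and each of the 10 had exactly 1 row among the 25428 genes of the array. Whole livers of 21 mice with the diet label std were measured, 1 array per animal. The 10 knockout livers (Gata4-LSEC-KO) came from crosses of the driver line C57BL/6N-Tg(Clec4g-icre)1.1Sgoe with Gata4 floxed mice (STOCK Gata4tm1.1Sad/J), so that deletion is directed to cells in which Clec4g regulatory sequence is active, chiefly sinusoidal endothelium. The 11 control livers carried the genotype label wt. The labels give neither age nor sex, nor whether controls had the driver or a floxed allele. Sample numbers in the descriptions fell into 2 consecutive runs, with 4 knockout and 5 control livers in run 1 and 6 of each in run 2. The labels do not call these runs batches.

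Sinusoidal endothelial cells line the hepatic capillaries, have open fenestrae and no continuous basement membrane, and take up soluble waste from the blood by receptor-mediated endocytosis. Stabilins, the mannose receptor and the inhibitory Fc gamma receptor are the main receptors of this route, and ligands such as hyaluronan, oxidised lipoproteins, collagen fragments and small immune complexes end in the lysosome. GATA4 is a transcription factor known in this cell type for keeping the sinusoidal rather than the continuous capillary state.

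The values were log2 RMA signals, and every array had a median of 3.75. The number of arrays limits the precision of each comparison. The hepatocyte lectin gene Asgr1 averaged 10.2 in knockout and 10.2 in control livers, so the hepatocyte marker of the labelled tissue was well above the array median. Gata4 itself averaged 6.53 ± 0.23 (SD, n = 10) in knockout and 6.73 ± 0.29 (SD, n = 11) in control livers and did not pass the genotype test (limma, adjusted p = 0.264). In a whole liver lysate that value does not check deletion in one cell type. Control replicates 3 and 4, both of run 1, correlated least with their own group (mean r = 0.9808 and 0.98, against 0.981 to 0.9875 in the other arrays). Knockout replicate 6, at 0.981, lay only just above them and was left out only singly. Calls among the 10 genes that control replicates 3 and 4 together alter are given with and without them. Without them the differences (knockout minus control) of Dnase1l3, Gpr182 and Fcgr2b were -0.95, -0.64 and -0.42, and each kept its call. The correlations further below were not repeated without these arrays.

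Promoter windows of 300 bases (250 before and 50 after the annotated start, RefSeq, GRCm38.p6) were at hand for 6 of the 10 genes. They were searched on both strands for GATA, the core letters of the motif that GATA factors bind, and for 4 longer forms that contain this core. The longer forms were AGATAA and, ending in G, the form AGATAG, and with T as the opening letter TGATAA and, ending in G, the form TGATAG. The core was present in 5 of the 6 genes (Stab1, Stab2, Mrc1, Fcgr2b and Ehd3, and not Kit), while 57.9% of all 32851 windows of that length contain it. A longer form, AGATAG, was present in 2 of the 6 genes, Fcgr2b and Ehd3, against 29.8% of all windows with any of the 4 forms. The windows of the 3 receptor genes that were lower in knockout livers and had a window are printed 5′ to 3′ on the gene's strand, with each core match in capitals (TATC is the core on the opposite strand); a match is a stretch of letters and not a measured binding site. They lie at chr14:31168592-31168891 (minus strand) for Stab1, chr10:87007893-87008192 (minus strand) for Stab2 and chr1:170976022-170976321 (minus strand) for Fcgr2b.
Stab1: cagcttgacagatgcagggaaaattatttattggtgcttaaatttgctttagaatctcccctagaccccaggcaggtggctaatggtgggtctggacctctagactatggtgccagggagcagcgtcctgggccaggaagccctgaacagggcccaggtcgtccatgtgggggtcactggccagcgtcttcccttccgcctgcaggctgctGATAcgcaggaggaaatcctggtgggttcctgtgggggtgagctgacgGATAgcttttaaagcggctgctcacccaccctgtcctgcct
Stab2: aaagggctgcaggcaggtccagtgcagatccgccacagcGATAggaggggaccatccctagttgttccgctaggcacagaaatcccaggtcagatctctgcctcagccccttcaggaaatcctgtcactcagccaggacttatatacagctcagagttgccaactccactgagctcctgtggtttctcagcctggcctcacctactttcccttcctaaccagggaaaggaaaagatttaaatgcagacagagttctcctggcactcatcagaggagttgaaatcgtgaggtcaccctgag
Fcgr2b: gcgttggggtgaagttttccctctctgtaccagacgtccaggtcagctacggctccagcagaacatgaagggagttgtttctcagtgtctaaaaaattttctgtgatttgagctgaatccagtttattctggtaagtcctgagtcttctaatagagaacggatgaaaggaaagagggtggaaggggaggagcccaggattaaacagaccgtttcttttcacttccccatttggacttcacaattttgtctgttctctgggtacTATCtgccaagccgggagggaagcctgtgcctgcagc

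The comparison of knockout with control livers asked how loss of Gata4 in sinusoidal endothelium bears on the transcripts of its clearance apparatus. Of the 10 genes, 5 fell (Dnase1l3, Gpr182, Stab2, Stab1 and Fcgr2b), none rose and 5 did not pass the test, at an adjusted p under 0.05 in limma with genotype and run as terms. Among all 25428 genes 4.05% were lower and 3.28% higher by the same rule. The median difference of the 10 genes was -0.40 on the log2 scale, against -0.013 over all genes. The differences ran from -0.81 for Dnase1l3 to 0.58 for Lyve1, and the set did not share 1 direction: 8 genes had a difference below 0 and 2, Lyve1 and Ehd3, above it. Each of the 5 genes that fell was below the control mean of its run in 10 of 10 knockout livers. The 5 were picked by the genotype test on the same values, so this count is not separate evidence. Fewer endothelial cells and less transcript per cell cannot be told apart in whole liver.

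**Figure D1:**
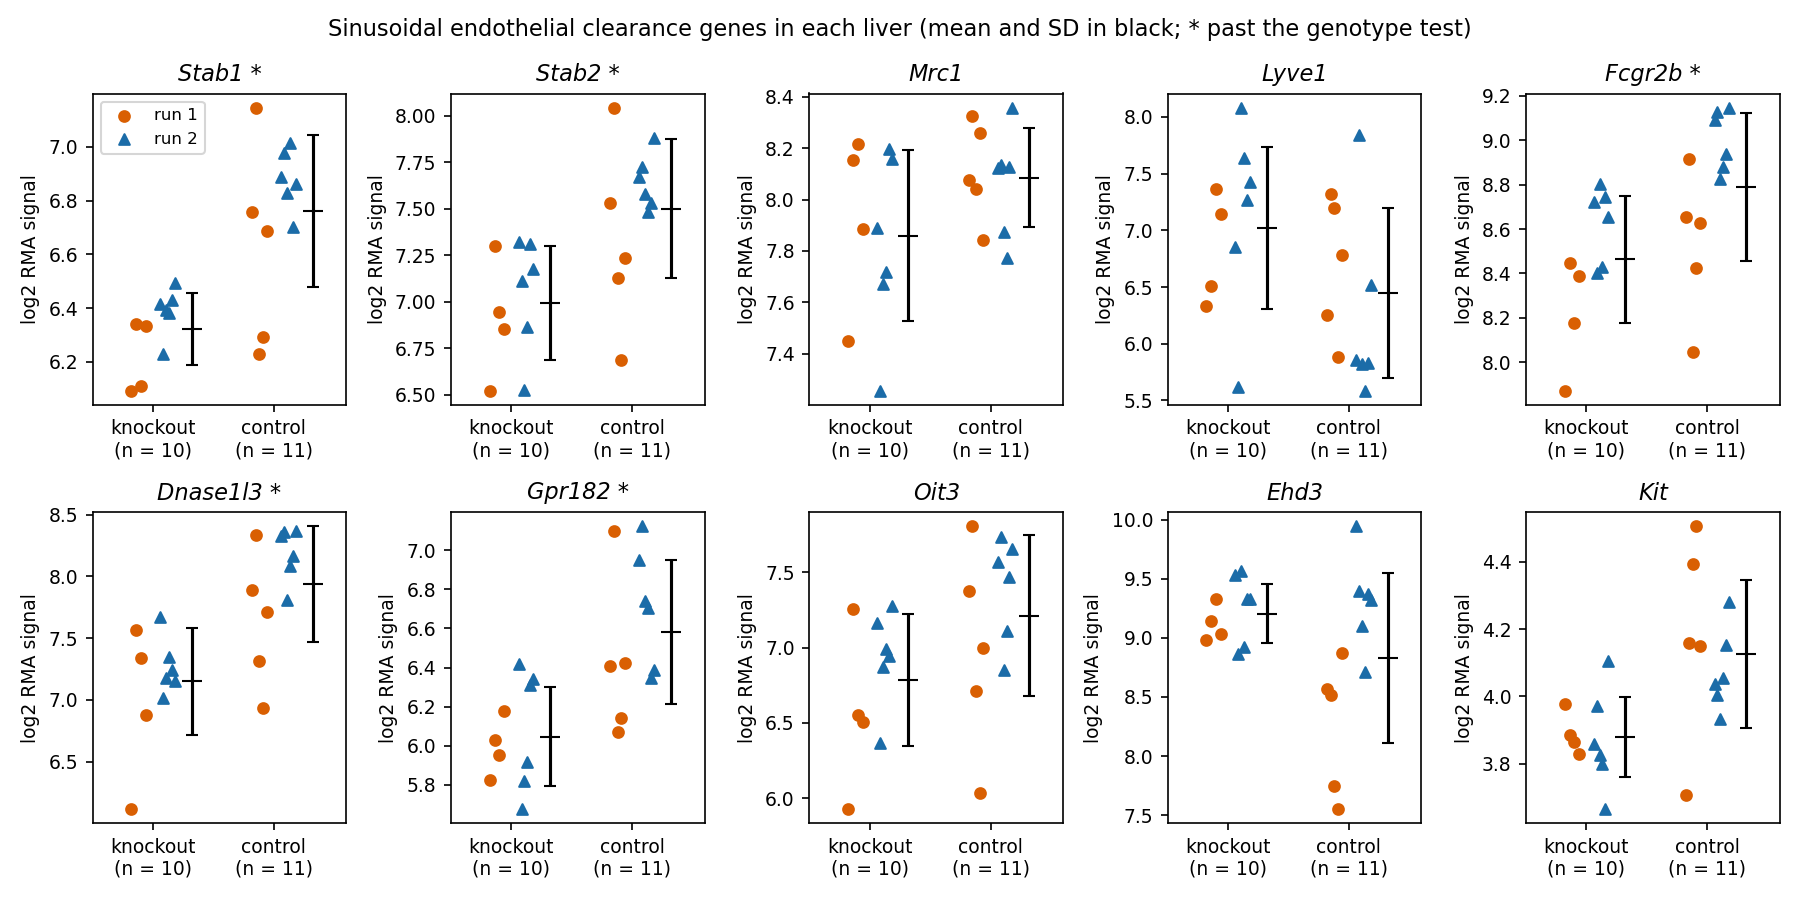
Log2 RMA signal (vertical axes, each on its own range) of the 10 clearance genes in 10 knockout and 11 control livers; circles are run 1, triangles run 2, and black bars the mean and SD. Stab1 in knockout livers stayed between 6.09 and 6.49, while control livers reached 7.15, with 2 run 1 controls down among the knockout values.

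Stab1 and Stab2 encode the stabilins, large multidomain receptors that clear modified lipoproteins, matrix fragments and, for stabilin-2, hyaluronan. Stab1 ran from 6.09 through a median of 6.36 to 6.49 in knockout livers, against 6.23, 6.83 and 7.15 in controls. Its groups overlapped only through control replicates 3 and 4 (6.23 and 6.29), since every other control lay at 6.69 or above. The difference was -0.45 ± 0.09 (SE; limma, adjusted p = 0.00394), which puts knockout livers at 73.1% of the control signal.

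Stab2 ran from 6.52 through 7.03 to 7.32 in knockout livers, against 6.69, 7.53 and 8.04 in controls. The knockout livers filled the lower end and 3 run 1 controls (replicates 3, 4 and 5, at 7.13, 6.69 and 7.24) lay within their range. Stab2 fell by 0.52 ± 0.14 (SE; limma, adjusted p = 0.0239), to 69.8% of control. Without control replicates 3 and 4 the differences were -0.55 for Stab1 and -0.63 for Stab2 (limma, adjusted p = 1.64e-04 and 0.00413).

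Fcgr2b encodes the inhibitory Fc gamma receptor, which on sinusoidal endothelium takes up small immune complexes and on B cells restrains the antigen receptor. It ran from 7.87 through 8.44 to 8.80 in knockout livers, against 8.05, 8.88 and 9.15 in controls. The groups overlapped over all livers, while within run 2 the highest knockout liver (8.80) lay just under the lowest control (8.82). Fcgr2b fell by 0.35 ± 0.09 (SE; limma, adjusted p = 0.0266), to 78.6% of control. That call was lost when run was left out of the model (limma, adjusted p = 0.139) and with the replicate number as a block (0.0669).

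Dnase1l3, the gene of a secreted endonuclease that degrades chromatin DNA in the circulation, had the largest difference of the 10. It ran from 6.12 through 7.21 to 7.67 in knockout livers, against 6.93, 8.08 and 8.36 in controls. Knockout replicate 1 stood below all other livers (6.12, with the next knockout liver at 6.88), and control replicates 3 and 4 (7.32 and 6.93) lay within the knockout range. Dnase1l3 fell by 0.81 ± 0.17 (SE; limma, adjusted p = 0.00662), to 57.1% of control, and leaving out any single liver kept the difference between -0.90 and -0.71.

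Gpr182 encodes an endothelial seven-transmembrane receptor that binds chemokines without classical signalling. It ran from 5.68 through 5.99 to 6.42 in knockout livers, against 6.07, 6.42 and 7.12 in controls. Here the overlap was not confined to run 1: 2 run 2 controls, replicates 10 and 11, had 6.35 and 6.39, under the highest knockout liver. Gpr182 fell by 0.55 ± 0.13 (SE; limma, adjusted p = 0.0139), to 68.5% of control.

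Oit3, which encodes a zona pellucida domain protein made by sinusoidal endothelium, had a difference of similar size that did not pass. It ran from 5.93 through 6.91 to 7.28 in knockout livers, against 6.03, 7.37 and 7.81 in controls. The lowest value of each genotype came from run 1, from knockout replicate 1 and control replicate 4. The difference was -0.45 ± 0.19 (SE; 95% interval -0.84 to -0.057; limma, adjusted p = 0.154), with 9 of 10 knockout livers below the control mean of their run. Without control replicates 3 and 4 it was -0.60 and passed (limma, adjusted p = 0.0376). Leaving out any single liver, knockout replicate 6 among them, did not make it pass (limma, adjusted p from 0.0579 to 0.258).

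Kit, the receptor tyrosine kinase for stem cell factor, is found on pericentral sinusoidal endothelium and on mast cells and progenitors. It ran from 3.67 through 3.86 to 4.11 in knockout livers, against 3.71, 4.15 and 4.51 in controls. These values lie close to the array median of 3.75, and background was not measured here. The difference was -0.24 ± 0.08 (SE; limma, adjusted p = 0.0609), with 9 of 10 knockout livers below the control mean of their run. It passed without control replicate 1, the lowest control (limma, adjusted p = 0.0101), or without knockout replicate 10, the highest knockout liver (limma, adjusted p = 0.0454), and was -0.17 without control replicates 3 and 4 (limma, adjusted p = 0.135).

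Mrc1 encodes the mannose receptor, a lectin of sinusoidal endothelium and Kupffer cells. It ran from 7.26 through 7.89 to 8.22 in knockout livers, against 7.77, 8.12 and 8.36 in controls. The groups overlapped over most of their range, and 4 knockout livers lay above the control mean of their run. The difference was -0.22 ± 0.11 (SE; 95% interval -0.46 to 0.016; limma, adjusted p = 0.262).

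Lyve1 encodes a hyaluronan receptor of lymphatic and sinusoidal endothelium that macrophages can also carry. It ran from 5.62 through 7.21 to 8.08 in knockout livers, against 5.59, 6.26 and 7.84 in controls. Both genotypes covered more than 2 log2 units, with an SD of 0.71 among knockout and 0.75 among control livers, the widest of the 10 genes in controls. In run 2, 4 of 6 controls were between 5.59 and 5.86 while 5 of 6 knockout livers were at 6.86 or above. The difference was 0.58 ± 0.31 (SE; 95% interval -0.051 to 1.22; limma, adjusted p = 0.269), 0.15 in run 1 and 0.90 in run 2.

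Ehd3 encodes an EH domain ATPase of endocytic recycling that is enriched in fenestrated endothelium. It ran from 8.86 through 9.24 to 9.56 in knockout livers, against 7.55, 8.88 and 9.95 in controls. In run 1 all 4 knockout livers (8.98 to 9.33) lay above all 5 controls (7.55 to 8.88), as did 1.71% of all genes in that run, and in run 2 the genotypes overlapped (8.86 to 9.56, against 8.71 to 9.95). The difference was 0.34 ± 0.19 over all livers (SE; limma, adjusted p = 0.293), 0.87 in run 1 and -0.051 in run 2. Without control replicates 3 and 4, which held the lowest values (7.75 and 7.55), it was 0.14.

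The runs bear on how clearly the genotypes separated. In run 2, 4 of the 10 genes (Stab1, Stab2, Fcgr2b and Dnase1l3) had every knockout liver below every control, against 1.73% of all genes. In run 1 none of the 10 did (2.51% of all genes), and over all 21 livers none did (0.0393% of all genes). Fitted alone, run 2 gave 5 of the 10 genes past the threshold (5.06% of all genes, either direction) and run 1 gave none, where only 0.0118% of all genes passed. The differences of the 5 genes that fell ran from -0.66 to -0.31 in run 1 and from -0.92 to -0.38 in run 2. None of the 10 genes passed the test of a genotype by run term (limma; 0.0315% of all genes did), with the lowest adjusted p at 0.304 for Ehd3.

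**Figure D2:**
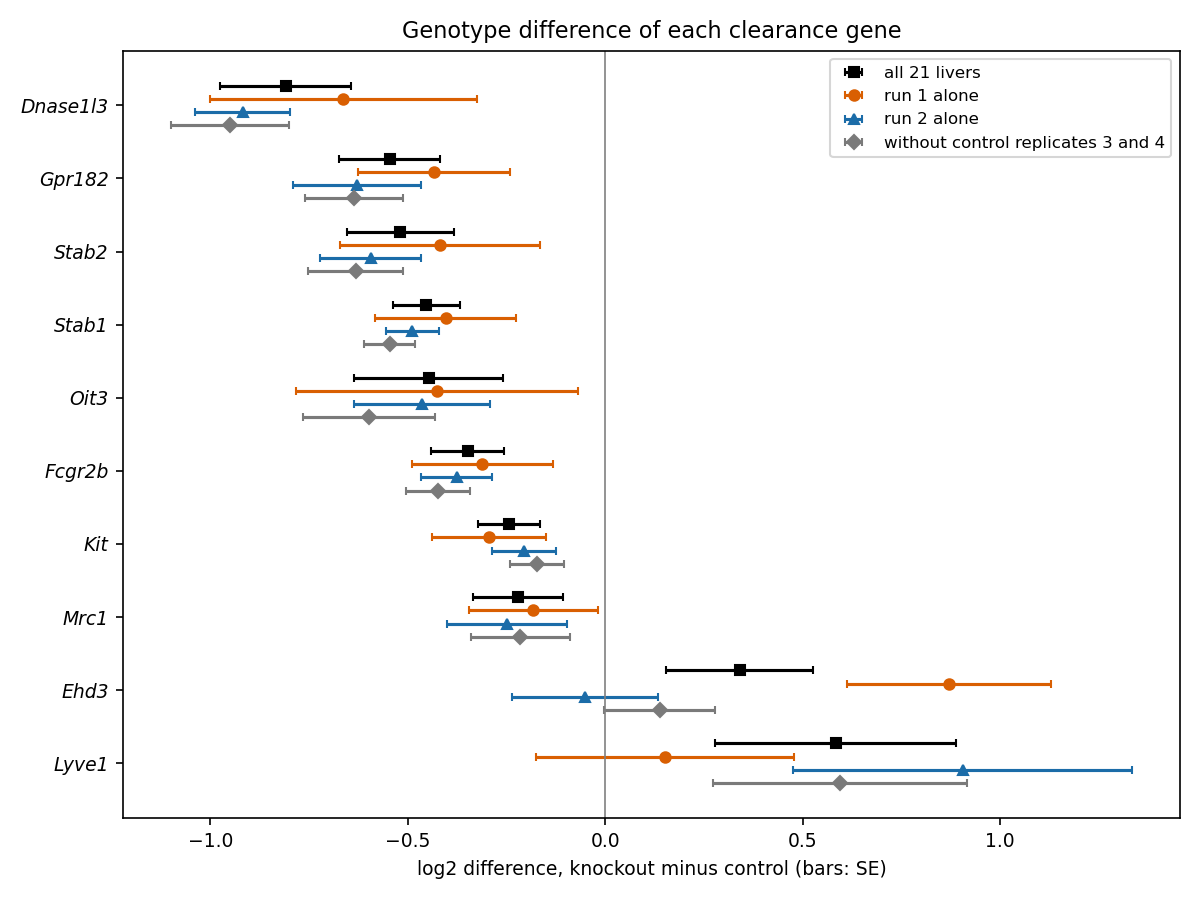
Log2 difference, knockout minus control, with its SE (horizontal axis) for each clearance gene over all 21 livers, within each run and without control replicates 3 and 4. The 5 genes that fell lie left of 0 in all 4 fits, from -0.81 to -0.35 over all livers, while Ehd3 is at 0.87 in run 1 and -0.051 in run 2.

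Livers of one genotype and run also differed among themselves, and several of the genes varied together between them. Values were centred on the mean of their genotype and run, and all 45 pairs were correlated over 21 livers with 100000 permutations within genotype and run. By Pearson's r, 19 pairs passed after adjustment over the 45, all of them positive, and 16 passed by Spearman's rho. No such count is given for other genes, so whether the 10 varied together more than other genes do was not tested. After the 2 livers farthest from the median of the first-named gene of a pair were left out, 3 of 45 passed. Some of the pairs that no longer passed kept a similar r, such as Stab1 and Oit3 (0.73 over all livers and 0.71 without the 2), and others had a lower one, such as Stab2 and Gpr182 (0.63 and 0.44). Of the 10 pairs among the 5 genes that fell, 9 passed, with r from 0.53 to 0.79 and rho from 0.43 to 0.74. Without those 2 livers r ran from 0.40 to 0.66 and 1 pair passed.

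Dnase1l3 and Oit3 were the closest pair (permutation test, n = 21: r = 0.90, p = 1e-05, the smallest the permutations can give, adjusted p = 0.00045; rho = 0.82, p = 7e-05, adjusted p = 0.00315), and r was 0.87 without the 2 farthest livers. Stab1 and Gpr182 followed each other with r = 0.78 (permutation p = 7e-05, adjusted p = 0.00157) and rho = 0.74 (p = 1.7e-04, adjusted p = 0.00382), and with r = 0.64 without the 2 livers. Fcgr2b and Oit3 had r = 0.74 (permutation p = 0.003, adjusted p = 0.0223) and rho = 0.67 (p = 0.00383, adjusted p = 0.0316), and r = 0.76 without the 2 livers. Lyve1 and Kit passed in none of their 9 pairs each. For Lyve1 r ran from -0.10 to 0.48, and for Kit from -0.47 to 0.061.

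**Figure D3:**
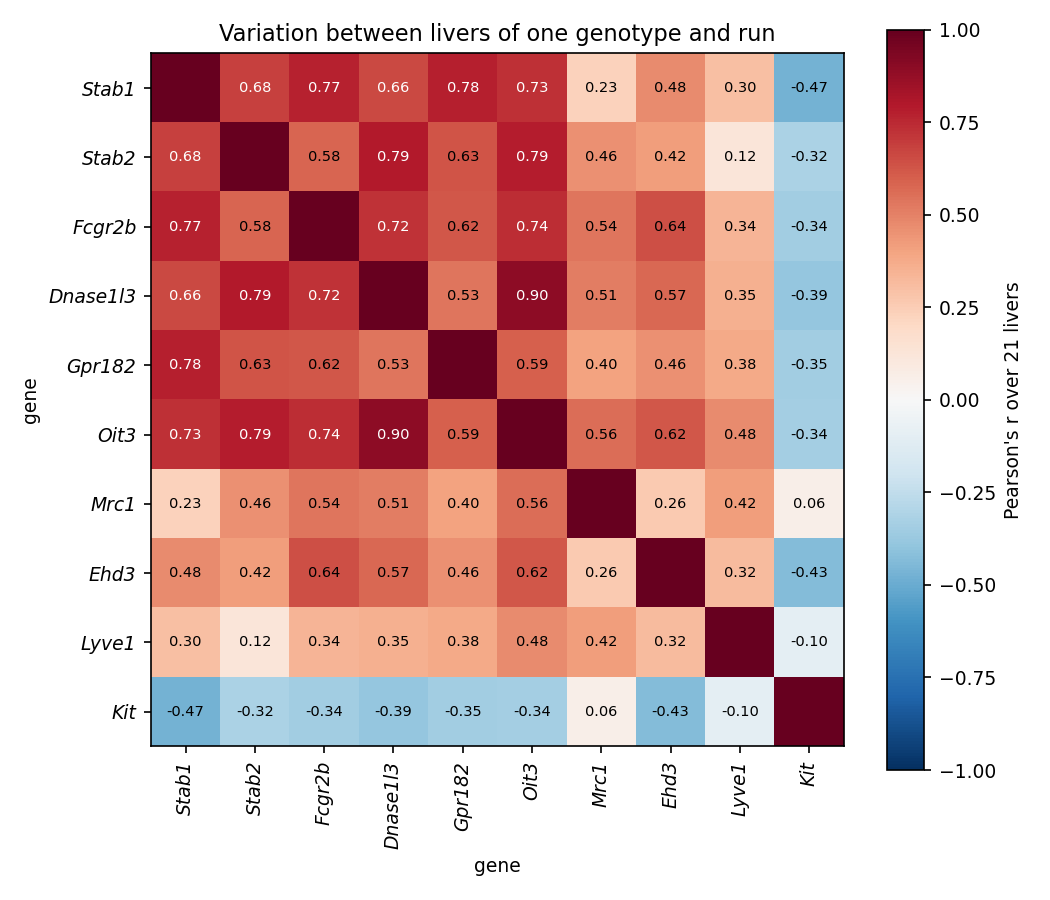
Pearson's r (colour and printed value) between each pair of clearance genes over 21 livers after centring on genotype and run. The block from Stab1 to Oit3 holds r from 0.53 to 0.90, and Kit is at or below 0.061 with every other gene.

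For each gene the non-member with the most similar centred values over the 21 livers was also looked up, as a description. Oit3 was most like Clec4g (r = 0.86), the sinusoidal lectin gene whose regulatory sequence drives the Cre, and Mrc1 was most like Clec1b (r = 0.83), a lectin gene of sinusoidal endothelium and Kupffer cells. Stab1 was most like Snora62 (r = 0.92), Ehd3 like Smyd5 (r = 0.91), Kit like Rtraf (r = 0.82) and Fcgr2b like Ywhag (r = 0.80). Dnase1l3, Lyve1, Stab2 and Gpr182 were most like Csf2 (r = 0.88), Nipal2 (r = 0.86), Tdpoz8 (r = 0.81) and Gm31526 (r = 0.80), whose means were all below the array median. Each was the highest r among all other rows with 1 symbol, and the arrays share a common normalization.

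Other genes of the same families and routes were set beside the 10. Of 6 DNase genes, Dnase1l3 fell and no other passed; Dnase1l1 had a difference of -0.15 ± 0.08 (SE). Of 4 genes of the mannose receptor family none passed (limma; lowest adjusted p = 0.262, for Mrc1). Of 11 hyaluronan genes Stab2 alone passed, and the adhesion receptor gene Cd44 had 0.44 ± 0.15 (SE; limma, adjusted p = 0.0826). These 3 lists had medians of -0.056, 0.0043 and -0.047, against -0.013 over all genes, of which 7.33% passed in either direction.

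The Fc gamma receptor genes and their partners parted in direction, where 3.28% of all genes were higher and 4.05% lower. Of 7 measured, Fcgr2b fell while 3 rose: Fcer1g, the activating signal chain, by 0.96 ± 0.21, the high-affinity receptor gene Fcgr1 by 0.74 ± 0.18 and Inpp5d, the phosphatase recruited by the inhibitory receptor, by 0.68 ± 0.18 (SE; limma, adjusted p = 0.0102, 0.019 and 0.0263). The call of Inpp5d was lost without knockout replicate 3 or control replicate 8 or 9 (limma, adjusted p up to 0.0529). The receptor genes Fcgr3 and Fcgr4 had 0.03 ± 0.11 and 0.28 ± 0.39 (SE) and did not pass. The neonatal Fc receptor gene Fcgrt had 0.04 ± 0.12 (SE). The median of this list was 0.28. Myeloid cells express the 3 genes that rose. Of 15 Kupffer cell markers 6 also rose and 9 did not pass. Whether the number of myeloid cells has a part in the rise of the 3 genes was not tested.

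Among 18 other scavenger receptor genes, 2 rose and 1 fell, with a median of 0.056, where 7.33% of all genes passed in either direction. Scarb1, the high-density lipoprotein receptor, rose by 0.47 ± 0.07 and Cd68, a macrophage lysosomal glycoprotein, by 1.01 ± 0.23 (SE; limma, adjusted p = 6.03e-04 and 0.013). The collectin scavenger receptor gene Colec12 fell by 0.36 ± 0.10 (SE; limma, adjusted p = 0.0329). Its call was lost without any 1 of 7 livers (knockout replicates 4, 8 and 10 and control replicates 6, 7, 8 and 10; limma, adjusted p up to 0.065) and without control replicates 3 and 4 together (0.0675). Of 14 lysosomal protease and glycosidase genes 3 rose and none fell, with a median of 0.20, where 3.28% of all genes were higher. Ctsa rose by 0.33 ± 0.08, Ctsb by 0.29 ± 0.07 and the hexosaminidase gene Hexa by 0.50 ± 0.14 (SE; limma, adjusted p = 0.0114, 0.0149 and 0.0319). Hexa was lost without any 1 of 5 livers (knockout replicates 3, 4 and 10 and control replicates 2 and 10; limma, adjusted p up to 0.0648).

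Of 16 EHD and endocytic machinery genes, Ehd2, a membrane-shaping relative of Ehd3 at caveolae, rose by 0.55 ± 0.10, and Eea1, a tether of early endosomes, fell by 0.26 ± 0.06 (SE; limma, adjusted p = 0.00403 and 0.0127). The other 14, Ehd3, clathrin and adaptor genes among them, did not pass, and the median was -0.0070. Among all genes 7.33% passed in either direction. The call of Eea1 was lost when run was left out, in run 2 alone, with the block and with pan-endothelial centring (limma, adjusted p from 0.055 to 0.0953).

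Known ligands of the receptors were looked at as well. Beside each count here, 3.28% of all genes were higher and 4.05% lower. Of 5 measured ligands of the stabilins 3 rose and none fell, with a median of 0.48. Tgfbi, a secreted matrix protein, rose by 1.07 ± 0.14, the matrix glycoprotein gene Sparc by 0.57 ± 0.15 and Reln, which encodes reelin, by 0.46 ± 0.12 (SE; limma, adjusted p = 2.16e-04, 0.0216 and 0.0227). Of 9 genes of chemokines and atypical chemokine receptors set beside Gpr182, Cxcl9 and Cxcl10 rose by 1.46 ± 0.26 and 0.84 ± 0.21 (SE; limma, adjusted p = 0.00304 and 0.0215). Ackr1, the atypical receptor of venular endothelium, fell by 0.27 ± 0.08 at a level below the array median, a call lost without any 1 of 14 livers, all but control replicates 1, 2 and 3 and knockout replicates 1, 3, 4 and 5 (limma, adjusted p up to 0.0838), and without control replicates 3 and 4 together (0.0545). Cxcl12 had 0.32 ± 0.10 (SE; limma, adjusted p = 0.0567). Of 9 genes set beside Kit, Sos1 fell by 0.42 ± 0.07, the ubiquitin ligase gene Cbl rose by 0.54 ± 0.10 and the docking protein gene Gab2 by 0.40 ± 0.10 (SE; limma, adjusted p = 0.00142, 0.00394 and 0.0214). The ligand gene Kitl had 0.48 ± 0.15 (SE; limma, adjusted p = 0.0588).

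**Figure D4:**
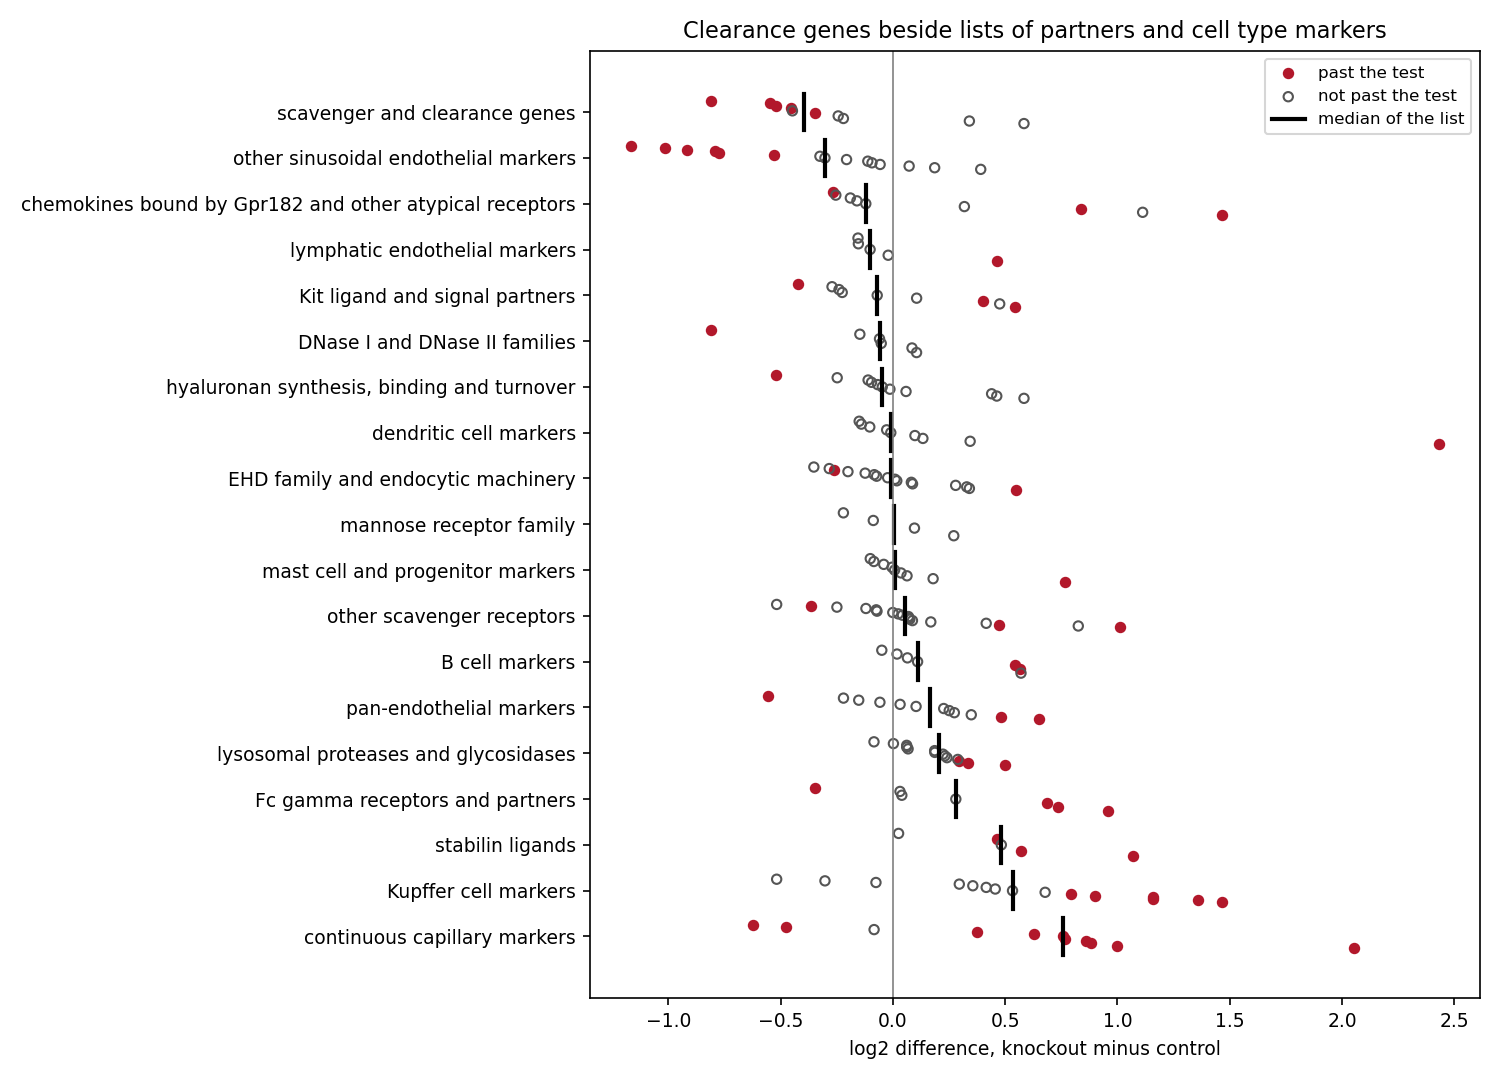
Log2 difference, knockout minus control (horizontal axis), of every measured gene in each list, filled where it passed the genotype test, with the list's median as a bar. The clearance genes have the lowest median (-0.40) and the continuous capillary markers the highest (0.76).

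Markers of the cells that could carry these transcripts moved with genotype in several lists, and their part in the results above was not tested. The 15 other markers of sinusoidal endothelium had a median of -0.30, and the 6 that passed were all lower. Among all genes 4.05% were lower and 3.28% higher. Plxnc1, Bmp2 and F8 had the lowest adjusted p among the 6 (differences of -1.01, -1.17 and -0.77). Clec4g, the source gene of the driver, fell by 0.92 ± 0.23 (SE; limma, adjusted p = 0.0176), a call that ended without the run term (0.0529). The other 9 did not pass. Of these, Tfec (0.39, limma, adjusted p = 0.0637), Ctsl (0.19) and Dab2 (0.072) had differences above 0, and the rest below 0. The mean level of the 15 per liver was 5.62 to 6.11 in knockout and 6.03 to 6.50 in control livers. Of 12 pan-endothelial markers Sox18 and Eng rose and Ptprb fell (0.65, 0.48 and -0.56), with a median of 0.16 and mean levels of 6.07 to 6.80 in knockout and 5.88 to 6.55 in control livers. Eng was lost without any 1 of 5 livers (knockout replicates 3, 4 and 10 and control replicates 8 and 9; limma, adjusted p up to 0.0574) and without control replicates 3 and 4 together (0.0605). When each array was instead centred on its pan-endothelial markers, the same 5 clearance genes passed and Oit3 with them, at -0.56 ± 0.13 (SE; limma, adjusted p = 0.014). That centring lowered differences in general, with the median of all genes at -0.127 against -0.013 in the main fit. The markers used for the centring themselves moved with genotype, Sox18 and Eng up and Ptprb down. The centring therefore cannot tell fewer endothelial cells from less transcript per cell.

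Of 11 continuous capillary markers 8 rose, Esm1, Col4a1 and Col4a2 among them (2.05, 0.88 and 0.63), where 3.28% of all genes were higher. Another 2 fell, Aqp1 and Col15a1 (-0.62 and -0.48, limma, adjusted p = 0.0264 and 0.0391), where 4.05% of all genes were lower. The median of the 11 was 0.76, with mean levels of 5.07 to 5.80 in knockout and 4.33 to 4.99 in control livers. Beside Mrc1, Lyve1 and Fcgr2b, 6 of 15 markers of Kupffer cells rose and none fell (C1qb by 1.46, C1qc by 1.16, C1qa by 0.79), with mean levels of 6.70 to 7.84 in knockout and 5.83 to 7.47 in control livers. The other 9 did not pass. Of these, Clec4f (0.30), Timd4 (0.46), Marco (0.42), Folr2 (0.53), Csf1r (0.68) and Slc40a1 (0.36) had differences above 0. Cd163 (-0.52), Clec1b (-0.30) and Fcna (-0.076) had differences below 0. Beside Fcgr2b, 2 of 7 B cell markers rose, Cd79a by 0.57 and Cd79b by 0.54, with mean levels of 3.32 to 4.13 in knockout and 3.19 to 3.39 in control livers; Cd79b was lost without any 1 of 6 livers (knockout replicates 4 and 9 and control replicates 4, 8, 9 and 10; limma, adjusted p up to 0.0673). Beside Dnase1l3, 1 of 9 dendritic cell markers rose, Cd209a by 2.43, a gene that lies near Clec4g. The other 8 did not pass, and the median of the 9 was -0.0095. Of these 8, Flt3, Itgax and Bst2 had differences above 0. Zbtb46, Xcr1, Clec9a, Siglech and Ccr7 had differences below 0. Mean levels of the 9, Cd209a included, were 4.17 to 4.69 in knockout and 3.99 to 4.54 in control livers.

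Beside Kit, 1 of 9 mast cell and progenitor markers rose, where 3.28% of all genes were higher. It was Cd34 (0.77), which is also a capillary marker. Mean levels of the 9 were 2.94 to 3.16 in knockout and 2.85 to 3.03 in control livers. The mast cell genes Cpa3, Mcpt4 and Cma1 averaged 2.64, 2.46 and 2.60 in knockout and 2.58, 2.47 and 2.68 in control livers, all below the array median. Beside Lyve1, 1 of 5 lymphatic markers rose, Reln, which stellate cells also express, with mean levels of 5.22 to 5.51 in knockout and 5.18 to 5.72 in control livers. The lymphatic regulator gene Prox1, which hepatocytes express too, had -0.10 ± 0.14 (SE), and Pdpn and Mmrn1 had -0.16 ± 0.08 and -0.15 ± 0.14 (SE).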

How the data were processed

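RNA from lysed whole liver was made into biotinylated cRNA by the Affymetrix procedure, per the labels' protocols. The deposited values are log2 signals made by the authors with RMA, per the submitters' processing notes; neither its version nor a genome build is named there. Sorted values of the 21 arrays agreed to within 0.00193. Of 25428 rows, 24705 had 1 symbol in the platform annotation. All rows were fitted without a filter with lmFit and eBayes (limma 3.58.1, R 4.3.3), with genotype and run as terms, Benjamini-Hochberg adjustment over all rows and a threshold of 0.05. Differences are knockout minus control.

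The 10 genes, the 18 other lists, their tests and the alternatives were chosen with earlier results of these data known. All 10 were named; from each list, up to 3 genes with the lowest adjusted p among those that passed, or the 1 with the lowest p; other genes named were chosen after their values were seen. Listed genes without a row were not analysed here. Each array was taken as 1 animal. Promoter windows came from RefSeq (GRCm38.p6). The fit was tested on simulated data. Alternatives were no run term, each run alone, the replicate number as a block, other normalizations, a filter, another prior, array weights and leaving out arrays; leaving out control replicates 3 and 4 was added after seeing the data. Replicate numbers are shared between genotypes but did not pair the samples (correlations of same-numbered deviations from -0.0907 to 0.184).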

Additional observations from a re-analysis of the deposited data

Results flagged for a closer look

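Values that stood apart from the rest of the knockout group were looked for among 48 of the named genes with Dixon's ratio (critical value 0.466 for 10 samples). Chance flags about 1 in 20 groups, and the control group of 11 was not tested. Dnase1l3 was lowest in knockout replicate 1, at 6.12, with the next liver at 6.88 (ratio 0.49). Plxnc1 was lowest in knockout replicate 4, at 5.82, with the next at 6.4 (ratio 0.547). Cd79b was highest in knockout replicate 6, at 5.37, with the next at 4.56 (ratio 0.537). Cxcl10 was highest in knockout replicate 10, at 6.54, with the next at 5.26 (ratio 0.514).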

How the results depend on the processing

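Of the 10 genes, 5 were lower under the main model and none was lower in run 1 alone (0 calls); no other alternative took the count of lower genes out of the range of 4 to 6, and no gene was higher under any. Leaving out each array in turn gave 5 to 6 lower genes. Ehd3 turned to -0.051 in run 2 alone. With the replicate number as a block, Fcgr2b had -0.33 (limma, adjusted p = 0.0669) and the other 4 calls were kept; the numbers do not pair the samples. Kit passed with dim genes left out and with array weights (limma, adjusted p = 0.0479 and 0.0359). Of 45 pairs of genes, 19 correlated past the threshold, and 3 did without the 2 farthest livers. Centring on pan-endothelial markers moved the median difference of all genes to -0.127. Of the same 48 named genes 42 passed, and 22 of these passed under every alternative except run 1 alone, where none did. Among those of the 48 outside the 10, calls of Reln, Cd79a, Cd79b, Colec12, Inpp5d, Eea1, Gab2, Ctsa, Ctsb and Hexa ended both in run 2 alone and with pan-endothelial centring. Those of Eng, Cd68, Fcgr1 and Cxcl10 ended in run 2 alone, and those of Ackr1, Sparc and Cbl with that centring. With the replicate block, calls of Eng, Reln, C1qc, Cd79b, Eea1, Ackr1, Gab2, Hexa and Clec4g also ended. The causes of these shifts were not tested.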
